A study of Mus musculus with 18 samples.

Results

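Liver RNA from ob/ob mice given PaPE-1 was compared directly with liver RNA from ob/ob mice given 17β-estradiol (E2). The comparison rests on 6 of the 18 liver libraries of the series, 3 per ligand, which were chosen by their model and treatment labels. It covers 13433 of the 40840 annotated genes, those whose counts passed edgeR's expression filter over the 9 ob/ob libraries. All of these mice were ovariectomized C57BL/6 females that lacked functional leptin (leptin-deficient, ob/ob) and ate a normal AIN-76A diet. Osmotic minipumps placed a week after ovariectomy delivered the treatment for 6 weeks. They held vehicle (DMSO, ethanol and saline) or a daily dose, per kg of body weight, of 5 µg of E2 or 300 µg of PaPE-1. The daily dose of PaPE-1 was therefore 60 times that of E2, so each difference below is between treatments as given and not between compounds at matched doses. The ages of the mice were not given in the sources used here. The E2 libraries carry the labels L1, L12 and L19, the PaPE-1 libraries L5, L6 and L16 and the vehicle libraries L3, L8 and L13, and values are listed in those orders. The sample records describe RNA of 3 biological replicates per treatment and also state that 2 per group were sequenced, although 3 libraries per group are present.

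E2 acts in the liver mainly through estrogen receptor α (ERα), which binds DNA in the nucleus and also signals from outside it through kinase cascades. PaPE-1 is one of the pathway preferential estrogens, synthetic ligands of the same receptor that were designed to act mainly through its kinase signaling and little through its binding to DNA. Hepatocytes, sinusoidal endothelial cells and liver macrophages all express ERα, and female liver has its own pattern of steroid- and drug-metabolizing enzymes set largely by growth hormone. The question was which liver genes differed in level between the 2 ligands when leptin was absent.

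The 6 libraries held 13335871 to 17021370 counts each, and no pair of libraries within a group agreed to within sampling noise. The tissue label was checked with Alb, the albumin gene, which was at 119170, 106720 and 104930 CPM (counts scaled by each library's normalized total) with E2 and 69390, 87066 and 69904 CPM with PaPE-1. On the first principal component, which held 48.36% of the variance of the 9 libraries, the E2 libraries lay between -50.28 and -30.11 and the PaPE-1 libraries between 3.22 and 33.21. E2 library L12 lay at the far end of the E2 group and PaPE-1 library L16 at the far end of the PaPE-1 group, and these are the libraries on which the counts below depended most. Other libraries stood apart in red blood cell transcripts, with the globin gene Hbb-bs at 252, 317 and 417 CPM with E2 and 1586, 1251 and 189.7 CPM with PaPE-1. The granule genes of neutrophils were highest in L12, as described with that list.

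By edgeR's quasi-likelihood test at a Benjamini-Hochberg adjusted p under 0.05, PaPE-1 gave a higher level than E2 for 1343 genes (10% of those tested) and a lower level for 1001 (7.45%). Of all tested genes, 17.4% thus passed the threshold in either direction. The shares of 10% higher and 7.45% lower are the background for each count of list members below. Adding a fold change over 2 left 183 genes higher (1.36%) and 244 lower (1.82%). Without regard to a test, every PaPE-1 library lay above every E2 library for 2571 genes (19.1%) and below for 2449 genes (18.2%). Against the shared vehicle libraries the same fit called 2972 genes for E2 (22.1%) and 0 genes for PaPE-1. For PaPE-1 against vehicle, 356 genes had an unadjusted p under 0.05 in edgeR and 300 in DESeq2, which called 1 gene higher and 1 lower after adjustment, while limma voom called 0 genes and had 335 with an unadjusted p under 0.05. The counts for PaPE-1 against E2 fell to 292 higher and 199 lower without E2 library L12. They were 569 and 348 without PaPE-1 library L16, 632 and 445 without E2 library L19, and 919 and 627 without PaPE-1 library L5.

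Among the 15 genes with the largest positive differences, Tubb2b, a β-tubulin gene (chr13:34310991-34314337, minus strand, GRCm39), stood at 0.198, 0.197 and 0.669 CPM with E2. With PaPE-1 it stood at 9.86, 3.72 and 11.1 CPM and with vehicle at 3.697, 9.34 and 3.07 CPM. The log2 difference was 4.52 (SE 0.72, adjusted p = 0.00701), a 22.9-fold higher level. As a limit, reads of near-identical tubulin genes can be split among them. Every PaPE-1 library exceeded every E2 library, but the rule that chose the 15 largest differences in each direction required such separation. Gpnmb, a transmembrane glycoprotein of lipid-laden macrophages, was at 4.49, 4.33 and 7.63 CPM with E2 and 65.9, 15.6 and 40.1 CPM with PaPE-1. The PaPE-1 values spanned a wide range, and the log2 difference was 2.89 (adjusted p = 0.0214). Mup20 and Cyp4a12a, also among the 15, are described with the male-biased genes. The other genes at this end each had a mean below 11 CPM with PaPE-1. Insyn1, Mfsd4a, Rasl10b, Prrg4, Ptgfr, Bhlhe41, F2rl1, Rbm24, Spink1, Mfap3l and Lrtm2 had differences from 2.58 (Lrtm2) to 4.22 (Insyn1), and Prrg4 was the most abundant of these with PaPE-1, at 12.3, 3.87 and 14.5 CPM. Ptgfr encodes the prostaglandin F receptor and F2rl1 a protease-activated receptor.

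Mpo, which encodes the granule enzyme myeloperoxidase (chr11:87684610-87695238, plus strand, GRCm39), had the largest negative difference among the genes named by the rule. It stood at 3.301, 23.97 and 10.1 CPM with E2 and 0.402, 0 and 0 CPM with PaPE-1, and at 0.259, 0.0873 and 0.118 CPM with vehicle. Its E2 values varied widely, with L12 the highest (log2 difference -6.47, SE 1.13, adjusted p = 0.0111). No E2 value overlapped PaPE-1, which the same rule required. Cyp3a41a, a female-specific cytochrome P450 (chr5:145630859-145656946, minus strand, GRCm39), was at 11.95, 1.58 and 2.41 CPM with E2 and 0.0671, 0.0758 and 0.0577 CPM with PaPE-1. The PaPE-1 libraries held 3 counts in all against 241 in the E2 libraries, a ratio of 80.5 with an exact 95% counting interval of 27.2 to 393, which covers counting error only. The 15 largest negative differences were made up of P450 genes (Cyp3a41a, Cyp2c69, Cyp2c40, Cyp3a16 and Cyp3a44), granule genes (Mpo, Elane, Camp, Ltf, Prtn3 and Cd177), A1bg, Capn11, Ly6k and the immunoglobulin gene Ighg1.

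**Figure D1:**
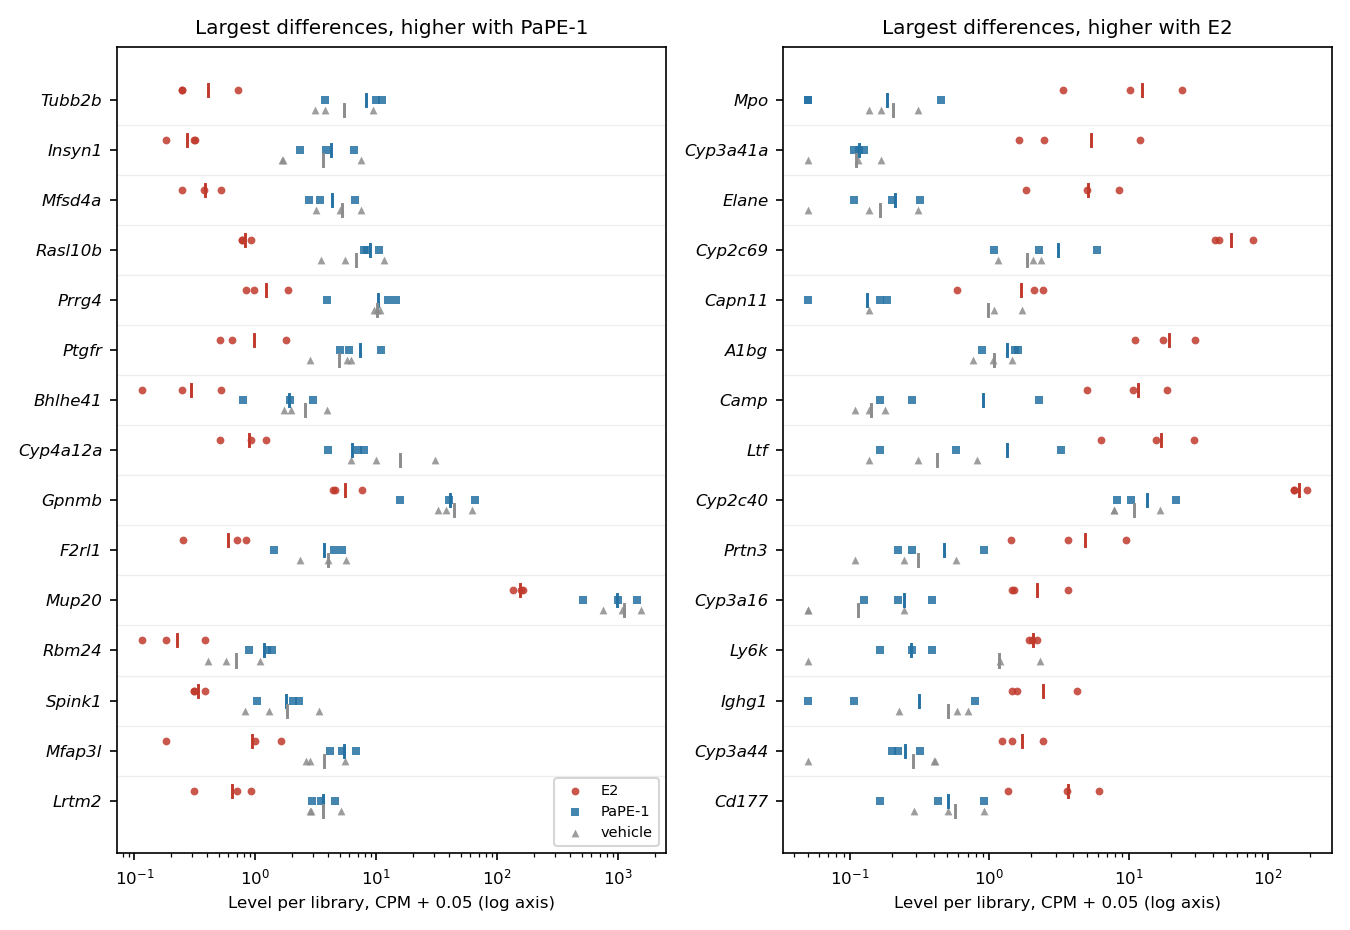
Level per library, as CPM plus 0.05 on a log axis, of the 15 genes with the largest positive (left) and the 15 with the largest negative (right) difference between PaPE-1 and E2 in ob/ob liver. Points are single libraries (3 per group) and short lines are group means; in every row the PaPE-1 libraries lie apart from the E2 libraries because separation was part of the rule that chose these genes, and vehicle libraries were not used by that rule.

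Among genes known to be expressed at a higher level in female than in male liver, most of those past the threshold were at their higher level with E2. Of 37 tested female-biased genes, 12 were lower and 2 were higher with PaPE-1, and their median log2 difference was -0.70, against -0.0079 over all genes tested. Cyp2c40, an arachidonic acid-metabolizing P450, was at 190.2, 153 and 154 CPM with E2 and 8.18, 21.6 and 10.4 CPM with PaPE-1. Vehicle libraries held 7.78, 7.85 and 16.8 CPM, a range that overlapped PaPE-1 and lay far below E2 (log2 difference -3.64, SE 0.44, adjusted p = 0.00478). Cyp2c69 was at 77.4, 44.5 and 41.6 CPM with E2, 2.21, 5.92 and 1.04 CPM with PaPE-1 and 1.103, 2.01 and 2.305 CPM with vehicle. A1bg, a plasma glycoprotein gene, was at 29.8, 11.03 and 17.5 CPM with E2 and 1.48, 0.834 and 1.56 CPM with PaPE-1. Cyp2c69 and A1bg had log2 differences of -4.21 (adjusted p = 0.00632) and -3.88 (adjusted p = 0.00148). Both were chosen by the rule that required no overlap between ligands.

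Hamp2, a paralog of the iron hormone hepcidin, was at 787, 731 and 541 CPM with E2 and 51.4, 146 and 127 CPM with PaPE-1 (log2 difference -2.67, SE 0.46, adjusted p = 0.0112). Cyp2a4, a testosterone hydroxylase, was lower by a smaller step, at 552, 500.0 and 537 CPM with E2 and 297, 345 and 336 CPM with PaPE-1 (log2 difference -0.70, adjusted p = 0.00442). The Cyp2c, Cyp3a and Cyp2a genes have close relatives in tandem, and the counting could divide reads among them. The female-biased genes that were higher with PaPE-1 were Gsta2, a glutathione transferase, and Cyp2b10, a P450 induced through the receptor CAR (log2 differences 1.28 and 0.82). Sult1e1, which sulfates and thereby inactivates estrogens, stood at 25.3, 17.1 and 25.4 CPM with E2, 57.96, 73.6 and 71.7 CPM with PaPE-1 and 12.5, 53.4 and 52.95 CPM with vehicle. The ligand groups did not overlap, but the difference did not pass the threshold (log2 difference 1.58, 95% interval 0.37 to 2.80, adjusted p = 0.0782). With each of the 6 libraries left out in turn, the count of lower female-biased genes ran from 9 without L12 to 16 without L6.

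Male-biased genes split evenly, with 5 of 26 tested higher and 5 lower with PaPE-1 and a median of -0.027. Mup20, a major urinary protein that male mice secrete as a pheromone, was at 164, 136 and 158 CPM with E2, 1434, 512 and 995 CPM with PaPE-1 and 753, 1078 and 1542 CPM with vehicle (log2 difference 2.68, adjusted p = 0.00647). Cyp4a12a, a fatty acid hydroxylase that is abundant in male liver, was at 0.462, 1.18 and 0.8696 CPM with E2 and 7.04, 3.94 and 7.85 CPM with PaPE-1 (log2 difference 2.90, adjusted p = 0.0458). The call of Cyp4a12a was lost in 8 of 15 alternatives, among them limma voom, no filter on low counts, the trend over gene length removed and each of the 6 libraries left out except L6. Other major urinary protein genes differed the opposite way. Mup3 was at 1531, 978 and 909.7 CPM with E2 and 352, 503 and 412 CPM with PaPE-1, and its log2 difference was -1.43 (adjusted p = 0.00895). The small counts moved with the choice of libraries: higher genes ran from 1 without L12 to 5 without L6 and lower genes from 3 without L12 to 7 without L6, and reads of the near-identical Mup genes may be divided among them.

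Growth hormone signals through STAT5 in hepatocytes, and most genes of that pathway past the threshold were at a higher level with E2. Of 18 tested, 7 were lower with PaPE-1 and 1, Onecut1, was higher, and the median log2 difference was -0.53. Igf1, the main circulating growth factor made under growth hormone, was at 442, 483 and 471 CPM with E2 and 289, 257 and 210.2 CPM with PaPE-1 (log2 difference -0.89, SE 0.19, adjusted p = 0.00928). Igfals, which encodes the acid-labile subunit that carries IGF-1 in plasma, was at 83.00, 81.3 and 68.1 CPM with E2, 37.6, 44.5 and 24.9 CPM with PaPE-1 and 27.2, 21.4 and 29.5 CPM with vehicle. No E2 library overlapped a PaPE-1 library for either gene, and the log2 difference of Igfals was -1.12 (adjusted p = 0.00503).

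Cux2, a transcription factor that female liver expresses and male liver hardly does, was at 16.1, 13.5 and 14.6 CPM with E2, 5.84, 5.23 and 2.19 CPM with PaPE-1 and 1.103, 1.48 and 3.43 CPM with vehicle. The PaPE-1 libraries lay between the other 2 groups in mean level (log2 difference from E2 -1.75, adjusted p = 0.0141). Prlr, the prolactin receptor gene, was at 196, 132 and 127 CPM with E2 and 81.2, 86.7 and 69.3 CPM with PaPE-1 (log2 difference -0.94, adjusted p = 0.0120). Cish, a feedback inhibitor induced by STAT5, was also lower with PaPE-1 (-0.81, adjusted p = 0.0146), as was Igfbp3 (-0.54, adjusted p = 0.0402). The count of lower genes ran from 3 without L12 to 7 without L1. Prlr and Cux2 also belong to the female-biased list.

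Among estrogen receptors and their coregulators, Esr1, which encodes ERα, was at 25.4, 19.2 and 20.9 CPM with E2, 11.2, 16.9 and 12.7 CPM with PaPE-1 and 17.8, 10.4 and 10.6 CPM with vehicle. The ligand groups did not overlap, and Esr1 was lower with PaPE-1 by a log2 difference of -0.68 (SE 0.22, adjusted p = 0.0460), a call that was lost without any single one of L1, L12, L19, L5 and L16. Esr2, the gene for estrogen receptor β, had 0 counts in all 9 ob/ob libraries, which allows up to 3 counts per library, and the membrane receptor gene Gper1 had 3 counts over the E2 libraries and 0 over the PaPE-1 libraries. Src, a kinase that receptors activate outside the nucleus, was at 5.08, 8.21 and 6.62 CPM with E2 and 14.02, 11.6 and 12.98 CPM with PaPE-1 (log2 difference 0.96, adjusted p = 0.00650). The acetyltransferase gene Ep300 was at 14.5, 8.27 and 13.1 CPM with E2 and 21.9, 19.8 and 24.3 CPM with PaPE-1 (log2 difference 0.88, adjusted p = 0.00701). Foxa1, a pioneer factor for hormone receptors, and the coactivator Ncoa2 were the other genes higher with PaPE-1 (0.66 and 0.60), and Gata4 was the other lower gene (-0.42). In all, 4 of 18 tested were higher and 2 lower, with a median of 0.30, and the counts ran from 2 without L12 to 8 without L1 and from 0 without L12 to 1 without L1. Of the 18 genes, 12 lay among the longest genes. With the trend over gene length removed, 3 were higher and 2 lower, the median was 0.17 and the call of Ncoa2 was lost.

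Genes that estrogen induces in breast and uterus gave 1 call. Of 10 tested of 18 listed, 0 were higher and 1, Ltf, which neutrophil granules also hold, was lower. The call of Ltf was lost in 10 of 15 alternatives, including those without L12, L19, L6 or L16, which left 0. Pgr, the progesterone receptor gene, had 0 counts in all 9 ob/ob libraries. Greb1 had 1 count and Tff1 2 counts over the 9 libraries. Ccnd1, the cyclin D1 gene, was at 144, 104 and 153 CPM with E2 and 136, 165 and 278 CPM with PaPE-1, and the groups overlapped (log2 difference 0.53, 95% interval -0.15 to 1.22, adjusted p = 0.2505). The intervals were narrower for Cxcl12 (-0.55 to 0.015), Xbp1 (-0.48 to 0.032), Igfbp4 (-0.39 to 0.18) and Rara (-0.41 to 0.12), and none of these genes passed the threshold.

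Of all lists, that of endothelial genes had the largest share of tested members past the threshold in the lower direction. Of 39 tested genes of liver endothelium, 28 were lower and 1, Vwf, was higher, with a median log2 difference of -0.76. Clec4g, a lectin of sinusoidal endothelium (chr8:3757066-3770695, minus strand, GRCm39), was at 65.04, 67.8 and 68.2 CPM with E2 and 30.1, 28.97 and 20.9 CPM with PaPE-1. Vehicle libraries held 26.2, 26.5 and 26.4 CPM, within the PaPE-1 range, and the log2 difference between ligands was -1.33 (SE 0.13, adjusted p = 4.52e-04). Eng, a coreceptor for bone morphogenetic proteins (chr2:32536607-32572681, plus strand, GRCm39), was at 93.3, 132 and 112 CPM with E2 and 44.01, 50.3 and 41.6 CPM with PaPE-1 (log2 difference -1.31, SE 0.14, adjusted p = 6.68e-04). For both genes the lowest E2 library lay well above the highest PaPE-1 library.

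Other sinusoidal genes followed the same direction. Oit3 was at 25.4, 34.7 and 31.7 CPM with E2 and 13.8, 13.7 and 11.2 CPM with PaPE-1, and the nuclease gene Dnase1l3 at 73.3, 73.4 and 75.7 and 39.8, 39.1 and 29.6 CPM. Kdr, the main receptor for vascular endothelial growth factor, was at 37.4, 38.7 and 41.5 CPM with E2 and 23.9, 22.3 and 18.7 CPM with PaPE-1. The log2 differences of these genes were -1.25, -1.04 and -0.86, with adjusted p from 0.00148 to 0.00194. Cdh5, the endothelial cadherin (-0.71, adjusted p = 0.00396), and Plvap, a component of vessel wall diaphragms (-0.57, adjusted p = 0.0192), were also lower. Bmp2 and Bmp6, ligands from endothelium that set hepcidin expression, had log2 differences of -0.92 and -0.95. Without L12 the count of lower endothelial genes was 18, without L16 it was 20, and with the trend over gene length removed it was 26. In bulk liver, fewer cells of a type and less RNA per cell cannot be told apart, here and in the lists of immune cells that follow.

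Markers of Kupffer cells, the resident macrophages of the liver, were lower with PaPE-1 for 8 of 21 tested genes, and 0 were higher (median -0.71). Of the 21 genes, 5 also belong to another list. Among the 8 lower genes, Cdh5 is also counted with the endothelial genes and C1qa with those of complement. Clec4f, a lectin particular to mouse Kupffer cells, was at 152, 204 and 216 CPM with E2, 75.7, 82.96 and 56.5 CPM with PaPE-1 and 83.99, 51.4 and 83.1 CPM with vehicle (log2 difference -1.41, SE 0.21, adjusted p = 0.00402). Folr2 was at 14.9, 18.9 and 18.6 CPM with E2 and 5.84, 9.100 and 4.096 CPM with PaPE-1, and the complement gene C1qa at 73.9, 105 and 106 and 54.3, 58.8 and 36.1 CPM. None of these values overlapped between ligands, and the log2 differences were -1.47 (adjusted p = 0.00630) and -0.93 (adjusted p = 0.00701). Slc40a1, the iron exporter and the most abundant gene on the list, was at 139.7, 128 and 160.0 and 174, 128 and 148 CPM (95% interval of the difference -0.24 to 0.39). The count of lower genes was 4 without L12 and 5 without L19. Of 20 tested genes of lipid-associated macrophages, 2 were higher and 3 lower, or 10% and 15% beside 10% and 7.45% of all tested genes, and without L12 both counts were 0.

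All lymphocyte and antigen presentation genes past the threshold were lower with PaPE-1. Of 18 tested T, NK and B cell genes 8 were lower and 0 higher (median -1.31), and of 15 tested MHC class II and dendritic cell genes 9 were lower and 0 higher (median -0.98). Ighm, the heavy chain of IgM, was at 13.1, 25.1 and 19.5 CPM with E2 and 4.23, 6.29 and 3.63 CPM with PaPE-1 (log2 difference -2.04, adjusted p = 0.0199). H2-Aa, an MHC class II chain, was at 117, 136 and 119 CPM with E2, 67.5, 55.7 and 59.6 CPM with PaPE-1 and 92.5, 63.3 and 71.3 CPM with vehicle (log2 difference -1.03, SE 0.14, adjusted p = 0.00194). Cd74, the invariant chain that accompanies class II molecules, was at 262, 264 and 225 and 174, 139 and 148 CPM (log2 difference -0.70, adjusted p = 0.00726). In these genes all E2 libraries stood above all PaPE-1 libraries. Vehicle library L3 stood apart from the other vehicle libraries: the summed level of the antigen presentation list was 497 CPM in L3 and 361 and 386 CPM in L8 and L13, against 587 to 676 CPM with E2 and 322 to 386 CPM with PaPE-1. The counts of lower genes ran from 2 without L12 to 9 without L1 for lymphocytes and from 5 without L12 to 9 without L1 for antigen presentation.

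Neutrophil granule genes varied widely among libraries. Of 16 tested of 26 listed, 7 were lower and 0 higher with PaPE-1 (median -2.83). Elane, the neutrophil elastase gene, was at 1.78, 8.47 and 4.95 CPM with E2 and 0.268, 0.152 and 0.0577 CPM with PaPE-1, and Camp, the cathelicidin gene, at 4.95, 18.9 and 10.7 and 2.21, 0.228 and 0.115 CPM. L12 was the highest library for both. Summed over the 13 tested granule genes other than Hp, Lcn2 and Anxa1, which hepatocytes or other cells also express, the level was 103.5, 397 and 226 CPM with E2 and 81.3, 12.7 and 5.25 CPM with PaPE-1, against 8.56, 15.9 and 11.9 CPM with vehicle. PaPE-1 library L5 thus held far more than the other PaPE-1 libraries and the vehicle libraries. The count of lower granule genes ran from 3 without L12 to 17 without L5, where more of the listed genes were tested. Hp, the haptoglobin gene, was at 4663, 5256 and 4681 CPM with E2 and 7348, 6835 and 4943 CPM with PaPE-1, and its difference did not pass the threshold (adjusted p = 0.103). Neutrophil surface genes were lower for 5 of 16 tested, among them Selplg and Il1b (-1.17 and -1.38), and without L12 the count was 0.

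Of 15 tested erythroid genes, 2, Alas2 and Tfrc, were higher with PaPE-1 and 0 lower, and 9 were higher without L16. The summed level of the list was 639 to 969 CPM with E2, 559.8 to 2864 CPM with PaPE-1 and 450.4 to 699 CPM with vehicle. Alas2, the first enzyme of heme synthesis in red cell precursors, was at 32.9, 32.5 and 36.3 CPM with E2 and 71.1, 60.97 and 37.5 CPM with PaPE-1, where L16 stood close to the E2 libraries (adjusted p = 0.0444). Of 13 tested genes of blood progenitors and megakaryocytes, 0 passed the threshold in edgeR or in DESeq2, and 2 had an unadjusted p under 0.05 in edgeR. The part that blood cells or their progenitors retained in the tissue may have in the differences of granule and lymphocyte genes was not tested.

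Interferon response genes were lower with PaPE-1 for 14 of 29 tested and higher for 0, with a median of -0.73. Type I and II interferons induce these genes in most cells through factors such as ISGF3 and IRF1, which bind a repeated GAAA element in their promoters. Ifit1, which binds foreign RNA, was at 14.2, 15.2 and 18.5 CPM with E2, 7.11, 8.04 and 10.4 CPM with PaPE-1 and 10.7, 10.4 and 9.51 CPM with vehicle (log2 difference -0.90, SE 0.17, adjusted p = 0.00537). Psmb8, an immunoproteasome subunit, was at 29.6, 32.2 and 31.6 CPM with E2 and 18.98, 20.02 and 14.9 CPM with PaPE-1, and Tap1, a peptide transporter, at 31.5, 39.1 and 34.6 and 22.1, 24.1 and 21.3 CPM. Neither gene overlapped between ligands (log2 differences -0.79 and -0.64). The count of lower genes was 5 without L12 and 7 without L16.

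An interferon element, searched on both strands as GAAA, any 2 bases and GAAA, occurred in 3.443% of 32851 RefSeq promoter windows of 300 bases (250 before and 50 after each gene start, GRCm38.p6). Of the interferon response genes lower with PaPE-1, 12 had a window and 4 of them held the letters, and of those that did not pass the threshold 8 of 10 did. The lower genes with a match are shown because they were the members lower with PaPE-1 that carry the element in view. The 250 bases before the start are printed 5′ to 3′ in the direction of the gene, and capitals mark each match to the element or its reverse complement, with overlapping matches in Gbp3 and Oas1a.
Ifit1, chr19:34640639-34640888, plus strand: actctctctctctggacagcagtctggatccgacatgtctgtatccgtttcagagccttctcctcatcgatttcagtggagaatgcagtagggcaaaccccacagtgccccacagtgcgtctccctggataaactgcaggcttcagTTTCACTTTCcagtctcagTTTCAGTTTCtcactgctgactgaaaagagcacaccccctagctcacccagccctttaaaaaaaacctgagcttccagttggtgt
Ifit3, chr19:34583279-34583528, plus strand: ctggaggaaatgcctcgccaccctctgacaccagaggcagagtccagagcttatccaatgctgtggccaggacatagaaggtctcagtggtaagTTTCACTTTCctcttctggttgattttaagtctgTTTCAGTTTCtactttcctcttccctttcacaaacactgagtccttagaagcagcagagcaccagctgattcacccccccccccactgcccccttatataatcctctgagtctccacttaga
Gbp3, chr3:142559794-142560043, plus strand: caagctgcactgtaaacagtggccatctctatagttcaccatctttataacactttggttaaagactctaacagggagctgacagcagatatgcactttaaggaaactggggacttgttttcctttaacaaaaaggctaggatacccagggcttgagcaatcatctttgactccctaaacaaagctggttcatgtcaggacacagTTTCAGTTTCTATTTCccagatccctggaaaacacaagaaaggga
Oas1a, chr5:120907526-120907775, minus strand: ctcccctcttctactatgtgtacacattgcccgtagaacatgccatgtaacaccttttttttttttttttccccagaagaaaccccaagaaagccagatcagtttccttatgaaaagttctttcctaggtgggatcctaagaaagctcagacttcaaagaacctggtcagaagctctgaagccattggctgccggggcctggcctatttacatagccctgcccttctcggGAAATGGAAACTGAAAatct
The first match began at -104 bases from the start in Ifit1, -156 in Ifit3, -45 in Gbp3 and -20 in Oas1a. Gbp3, a guanylate-binding protein, and Oas1a, a sensor that makes oligoadenylates, had log2 differences of -0.81 and -0.82. A match is a description of the letters in these windows and does not show that a factor was bound there.

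Chemokine and cytokine genes were lower with PaPE-1 for 9 of 23 tested and higher for 0 (median -0.59). Cxcl9, which attracts T cells and is induced by interferon γ, was at 28.7, 35.00 and 34.6 CPM with E2, 11.9, 12.1 and 10.4 CPM with PaPE-1 and 24.6, 9.08 and 11.2 CPM with vehicle (log2 difference -1.51, adjusted p = 0.0153). Vehicle library L3 lay nearer to E2 and the other vehicle libraries nearer to PaPE-1. Il18 was at 15.5, 13.9 and 15.1 CPM with E2 and 7.24, 10.8 and 8.65 CPM with PaPE-1 (log2 difference -0.74, adjusted p = 0.0121), and Cxcl1, which attracts neutrophils, at 5.22, 8.21 and 6.76 and 4.49, 3.56 and 3.000 CPM (log2 difference -0.87, adjusted p = 0.0177). The count of lower genes ran from 1 without L16 to 11 without L1.

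Clock genes past the threshold differed between ligands in both directions. The circadian clock is a loop in which the activators BMAL1 (encoded by Arntl) with CLOCK or NPAS2 bind E-box sites, while REV-ERB repressors and ROR activators compete at ROR elements. The time of day at which livers were taken was not given in the sources used here, and its part in these differences was not tested. Arntl was at 13.7, 10.8 and 6.29 CPM with E2 and 4.16, 4.02 and 0.865 CPM with PaPE-1, and Npas2 at 5.88, 4.66 and 2.14 and 1.54, 0.834 and 0.577 CPM. Nfil3, a repressor that acts opposite to the PAR bZIP factors, was at 31.8, 34.7 and 21.5 CPM with E2 and 16.6, 13.9 and 10.3 CPM with PaPE-1. These 3 genes were lower with PaPE-1 in every library, with log2 differences of -1.79, -2.10 and -1.11 and adjusted p of 0.0386, 0.0112 and 0.0142.

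Other clock genes were higher with PaPE-1. Nr1d2, which encodes REV-ERBβ, was at 41.7, 30.9 and 42.1 CPM with E2, 62.4, 65.1 and 78.9 CPM with PaPE-1 and 72.2, 66.9 and 64.00 CPM with vehicle (log2 difference 0.85, SE 0.14, adjusted p = 0.00363). The PAR bZIP genes Tef and Hlf were at 36.2, 37.9 and 74.4 and 43.2, 34.5 and 48.1 CPM with E2 and at 88.4, 95.3 and 117 and 59.97, 68.6 and 88.4 CPM with PaPE-1 (log2 differences 1.02 and 0.79). Bhlhe41, which encodes the repressor DEC2, was at 0.198, 0.0657 and 0.468 CPM with E2 and 0.738, 1.896 and 2.94 CPM with PaPE-1 (log2 difference 2.91). Per2 was the fifth higher gene, and its groups overlapped (9.51, 11.03 and 15.9 CPM with E2 and 14.2, 21.5 and 22.7 CPM with PaPE-1, log2 difference 0.68). In all, 5 of 19 tested were higher and 3 lower, with a median of 0.60. Dbp, Per1, Per3, Ciart and Nr1d1 did not pass the threshold, and their log2 differences were 1.38, 1.26, 1.01, 1.89 and -0.28. Without L12 the counts were 1 higher and 0 lower, without L16 1 and 1, and without L19 8 and 4.

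The ROR element core TAGGTCA, searched on both strands, occurred in 2.606% of the promoter windows, and the E-box CACGTG in 7.15%. Of the lower clock genes 2 of 3 with a window held the ROR element core and 0 of 3 the E-box, while of the higher genes with a window 0 of 4 held the ROR element core and 2 of 4 the E-box. Among the clock genes that did not pass the threshold, 0 of 9 held the ROR element core and 3 of 9 the E-box. The matches of the genes past the threshold are shown because the loop works through these elements, and capitals mark the match (for Nfil3 its reverse complement). The stretch for Arntl covers the match alone, 31 bases after the start, and the others are the 250 bases before the start, in the direction of the gene.
Arntl, chr7:113207529-113207558, plus strand: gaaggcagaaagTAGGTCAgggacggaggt
Nfil3, chr13:52981040-52981289, minus strand: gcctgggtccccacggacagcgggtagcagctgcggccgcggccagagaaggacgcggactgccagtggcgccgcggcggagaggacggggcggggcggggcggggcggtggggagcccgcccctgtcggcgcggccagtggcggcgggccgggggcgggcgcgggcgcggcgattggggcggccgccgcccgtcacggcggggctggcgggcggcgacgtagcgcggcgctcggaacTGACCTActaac
Bhlhe41, chr6:145865421-145865670, minus strand: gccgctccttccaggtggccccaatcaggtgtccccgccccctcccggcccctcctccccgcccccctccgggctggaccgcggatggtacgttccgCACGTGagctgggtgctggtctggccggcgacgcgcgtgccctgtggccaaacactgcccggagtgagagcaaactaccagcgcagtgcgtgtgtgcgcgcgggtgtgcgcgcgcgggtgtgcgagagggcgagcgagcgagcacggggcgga
Tef, chr15:81802423-81802672, plus strand: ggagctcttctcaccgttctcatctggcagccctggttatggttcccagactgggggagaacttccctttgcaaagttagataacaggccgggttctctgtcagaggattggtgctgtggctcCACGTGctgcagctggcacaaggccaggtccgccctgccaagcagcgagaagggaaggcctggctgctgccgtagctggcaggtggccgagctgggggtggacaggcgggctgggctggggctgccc
Beside these letters, Arntl and Nfil3 were lower and Bhlhe41 and Tef higher with PaPE-1. With so few windows the split is a description only.

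**Figure D2:**
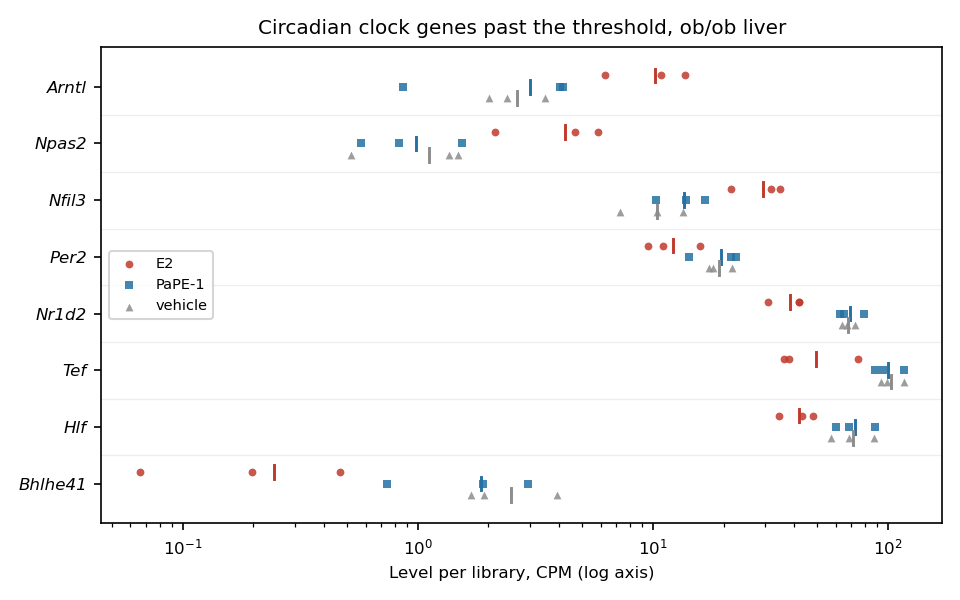
Level per library in CPM, on a log axis, of the 8 circadian clock genes past the threshold for PaPE-1 against E2 in ob/ob liver, with 3 libraries per group as points and group means as short lines. Arntl, Npas2 and Nfil3 lie lower with PaPE-1, the other 5 genes lie higher, and the vehicle libraries sit nearer to the PaPE-1 libraries than to the E2 libraries; the E2 and PaPE-1 points of Per2 overlap.

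Most antioxidant defense genes past the threshold were at a higher level with PaPE-1. Of 28 tested target genes of NRF2, the factor that cells activate against oxidants and electrophiles, 10 were higher and 1, G6pdx, was lower (median 0.30). Cbr3, a carbonyl reductase gene (chr16:93480107-93487879, plus strand, GRCm39), was at 4.49, 5.38 and 6.29 CPM with E2, 20.5, 18.4 and 26.9 CPM with PaPE-1 and 21.1, 30.3 and 23.5 CPM with vehicle. The lowest PaPE-1 library exceeded the highest E2 library by a wide margin, and Cbr3 shared with Clec4g the smallest adjusted p of all genes (log2 difference 2.03, SE 0.19, adjusted p = 4.52e-04). Srxn1, which repairs oxidized peroxiredoxins, was at 93.03, 98.4 and 104 CPM with E2 and 172, 151 and 196 CPM with PaPE-1 (log2 difference 0.81, adjusted p = 0.00225). Nqo1, a quinone reductase, was at 24.03, 22.4 and 25.02 CPM with E2 and 35.9, 32.5 and 37.1 CPM with PaPE-1 (log2 difference 0.56, adjusted p = 0.00582). Gsta1 and Gsta2, which can share reads, had log2 differences of 2.25 and 1.28. In each of these genes the vehicle mean lay nearer to PaPE-1 than to E2. The count of higher genes was 5 without L12, 5 without L19 and 5 without L16.

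Among glutathione genes, 6 of 30 tested were higher and 6 lower with PaPE-1 (median -0.12). Without L12 3 were higher and 4 lower, and with the trend over gene length removed the counts were 8 and 4 and the median 0.10. Gss, the last enzyme of glutathione synthesis, was at 102, 97.1 and 93.9 CPM with E2 and 178, 160.5 and 167 CPM with PaPE-1 (log2 difference 0.79, adjusted p = 0.00209). Gstt1 was at 458, 470.3 and 411 CPM with E2 and 197, 274 and 239 CPM with PaPE-1 (log2 difference -0.92, adjusted p = 0.00447). Gstm1, the most abundant member, was at 3602, 3725 and 4018 CPM with E2 and 3551, 3533 and 3946 CPM with PaPE-1, with a 95% interval of the difference from -0.40 to 0.32. Of 16 tested genes for UDP-glucuronosyltransferases and their substrate supply, 3 were higher and 0 lower, and the higher count ran from 1 without L12 to 6 without L1, with 1 also without L19 or L16. Ugt1a9 was at 13.01, 4.92 and 7.76 CPM with E2 and 19.6, 30.5 and 35.1 CPM with PaPE-1 (log2 difference 1.73, adjusted p = 0.0108), and Ugp2 and Ugdh, which make UDP-glucuronate, had differences of 0.73 and 0.55. Of 14 tested sulfotransferase genes, 0 passed the threshold in edgeR, where 4 had an unadjusted p under 0.05, and DESeq2 called 1 higher and 1 lower. The estrogen-inactivating Sult1e1 is described above, and the values of Sult2a1 varied widely (79.4, 18.3 and 24.3 CPM with E2 and 4.76, 14.9 and 3.58 CPM with PaPE-1).

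In bile acid metabolism, 5 of 25 tested genes were lower and 3 higher with PaPE-1. Cyp8b1, the sterol 12α-hydroxylase that sets the share of cholic acid, was at 677, 749.8 and 536 CPM with E2, 269, 359 and 344 CPM with PaPE-1 and 395, 298 and 373 CPM with vehicle (log2 difference -1.01, SE 0.16, adjusted p = 0.00349). Nr0b2, which encodes the repressor SHP, was at 68.6, 76.2 and 63.1 CPM with E2 and 38.7, 37.5 and 17.7 CPM with PaPE-1 (log2 difference -1.15, adjusted p = 0.0121). Hsd3b7, an early enzyme of the pathway, was at 574, 655 and 545 and 296, 372 and 295 CPM, and Cyp2c70, which makes muricholic acids, at 435, 393 and 342 and 152, 258 and 139 CPM. Both were lower with PaPE-1 in every library (log2 differences -0.88 and -1.09). Abcb4, the canalicular phospholipid exporter, was higher, at 279.6, 259.6 and 269 CPM with E2 and 464, 345 and 402 CPM with PaPE-1 (log2 difference 0.58, adjusted p = 0.00983). The counts ran from 2 without L12 to 7 without L6 for lower and from 0 without L12 to 3 without L1 for higher genes.

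Cholesterol synthesis genes, which SREBP2 drives, were lower with PaPE-1 for 8 of 27 tested and higher for 0 (median -0.60). Tm7sf2, a sterol reductase, was at 94.8, 135 and 119 CPM with E2 and 34.3, 66.7 and 34.9 CPM with PaPE-1 (log2 difference -1.36, adjusted p = 0.0260). Ebp, a sterol isomerase, was at 225, 241 and 209.9 CPM with E2, 102, 165 and 93.05 CPM with PaPE-1 and 135, 95.6 and 115 CPM with vehicle (log2 difference -0.91, SE 0.20, adjusted p = 0.0112). Pmvk and Fdft1, which act earlier in the pathway, had log2 differences of -1.18 and -0.76. PaPE-1 library L6 lay nearest to E2 in all 4 genes. These calls depended on single libraries: 0 genes were lower without L12, 1 without L16, 2 without L19 and 2 without L5.

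Of apolipoprotein, sterol efflux and VLDL genes, 7 of 27 tested were lower with PaPE-1 and 1, Apoa4, was higher. Apoa4, an apolipoprotein that rises with hepatic fat, was at 5765, 7482 and 7847 CPM with E2, 20090, 11357 and 20391 CPM with PaPE-1 and 10333, 21572 and 12942 CPM with vehicle (log2 difference 1.30, adjusted p = 0.0146). Apom, which carries sphingosine 1-phosphate, was at 147, 159.9 and 141 CPM with E2 and 57.9, 95.8 and 50.6 CPM with PaPE-1 (log2 difference -1.13, adjusted p = 0.00931). Soat2 and Lcat, which esterify cholesterol in the cell and in plasma, had differences of -0.77 and -0.50. Apoe was at 30145, 31430 and 26528 and 26385, 27046 and 21796 CPM (95% interval -0.56 to 0.10). The count of lower genes was 0 without L12, 2 without L16 and 3 with the trend over gene length removed.

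Fatty acid synthesis genes gave 2 lower and 0 higher of 28 tested. The lower share was 7.14%, near the 7.45% of all tested genes. Acss2, which makes cytosolic acetyl-CoA from acetate, was at 406, 441 and 449 CPM with E2 and 113, 213 and 173 CPM with PaPE-1 (log2 difference -1.38, adjusted p = 0.0188). Mlxipl, which encodes the sugar-sensing factor ChREBP, was at 202, 281 and 245 CPM with E2 and 139, 154 and 144 CPM with PaPE-1 (log2 difference -0.73, adjusted p = 0.00934). Pnpla3 was at 89.3, 133 and 97.5 CPM with E2 and 13.6, 46.7 and 20.4 CPM with PaPE-1, a wide gap that did not pass the threshold (adjusted p = 0.0561). Fasn and Scd1, the synthase and the desaturase, and Srebf1 had 95% intervals of -1.003 to 0.11, -0.15 to 0.83 and -0.25 to 0.48 for the log2 difference. Without L12 0 genes were lower and without L6 5.

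Of 32 tested triglyceride and lipid droplet genes, PaPE-1 gave a higher level for 4 and a lower level for 2. As shares, 12.5% and 6.25% were near the 10% and 7.45% of all tested genes. Fitm2, needed for droplet formation, was at 18.6, 15.1 and 14.7 CPM with E2 and 25.8, 28.5 and 30.6 CPM with PaPE-1 (log2 difference 0.81, adjusted p = 0.00512). Gpat4 (0.57), Lpin2 (0.71) and Mgll (0.38) were the other higher genes, and Agpat2 (-0.59) and Cideb (-0.36) the lower ones. The droplet coat gene Plin2 was at 1058, 1155 and 1369 CPM with E2 and 1562, 1101 and 1859 CPM with PaPE-1, and the groups overlapped (adjusted p = 0.212). Without L12 the counts were 1 higher and 0 lower.

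In fatty acid uptake, Cd36, the fatty acid translocase, was at 294, 225 and 269 CPM with E2, 397, 351 and 529.9 CPM with PaPE-1 and 394, 456 and 468 CPM with vehicle (log2 difference 0.70, SE 0.16, adjusted p = 0.0114). Fabp5, a fatty acid-binding protein, was at 33.3, 48.2 and 56.5 CPM with E2 and 5.84, 11.8 and 8.36 CPM with PaPE-1, lower with PaPE-1 by a log2 difference of -2.42 (adjusted p = 0.0184). Acsl4 and Lpl were higher (0.87 and 0.42) and hepatic lipase, Lipc, was lower (-0.85). Of 22 tested, 3 were higher and 2 lower, or 13.6% and 9.09% beside 10% and 7.45% of all tested genes. Without L12 the counts were 1 and 0.

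Fatty acid oxidation genes were higher with PaPE-1 for 6 of 40 tested and lower for 1, Cyp4a32 (median 0.16). These counts were 15% and 2.5%, beside 10% and 7.45% of all tested genes. Cpt1a, which admits long-chain fatty acids to mitochondria, was at 279, 264 and 357 CPM with E2, 499, 479.5 and 651 CPM with PaPE-1 and 473, 499 and 514 CPM with vehicle (log2 difference 0.86, SE 0.15, adjusted p = 0.00481). Acadm, the medium-chain dehydrogenase, was at 322, 231 and 277 CPM with E2 and 412, 458 and 376 CPM with PaPE-1, and the coactivator gene Ppargc1a at 9.18, 6.43 and 8.96 and 12.3, 13.4 and 14.8 CPM. These groups did not overlap (log2 differences 0.59 and 0.72, adjusted p = 0.0146 and 0.0125). The count of higher genes ran from 1 without L12 to 8 without L6.

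Genes of the insulin and FOXO1 pathway were higher with PaPE-1 for 9 of 23 tested and lower for 0 (median 0.29). Pik3r1, the regulatory subunit of phosphoinositide 3-kinase, was at 57.5, 42.4 and 58.5 CPM with E2, 106, 86.4 and 124 CPM with PaPE-1 and 99.4, 89.5 and 104 CPM with vehicle (log2 difference 1.002, SE 0.15, adjusted p = 0.00285). Foxo1 itself, the factor that insulin removes from the nucleus, was at 27.3, 22.6 and 34.3 CPM with E2 and 41.3, 38.7 and 58.95 CPM with PaPE-1 (log2 difference 0.73, adjusted p = 0.0241). Mtor, Gsk3b, Trib1 and Pik3ca had differences of 0.63, 0.64, 0.63 and 0.40. Pck1, a gluconeogenic target of FOXO1, was at 1154, 1205 and 1801 CPM with E2 and 2333, 1361 and 1941 CPM with PaPE-1 and did not pass the threshold (adjusted p = 0.149). The count of higher genes was 2 without L12, 4 without L16 and 5 without L19. With the trend over gene length removed it was 7 and the median 0.13, and 13 of the 23 lay among the longest genes. Of 26 tested genes of glucose and fructose metabolism, 1 was higher (Pfkfb3, 1.06) and 1 lower (Gckr, -0.40).

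Of 29 tested hepatocyte identity genes, 9 were lower and 5 higher with PaPE-1, and the median log2 difference was 0.084, with 16 members above 0 and 13 below. Serpina1c, an α1-antitrypsin gene, was at 2426, 2234 and 1937 CPM with E2 and 1014, 1128 and 912 CPM with PaPE-1 (log2 difference -1.11, SE 0.14, adjusted p = 0.00158). As a limit, its reads may be shared with close paralogs or lost to them, which was not tested. Ttr, the thyroxine carrier transthyretin, was at 16568, 16437 and 15399 CPM with E2, 9392, 10974 and 8828 CPM with PaPE-1 and 10594, 8999 and 10268 CPM with vehicle (log2 difference -0.73, adjusted p = 0.00701). Alb, whose values open this account, had a log2 difference of -0.55 (SE 0.17, adjusted p = 0.0383), and Ahsg, the fetuin gene, -0.75 (adjusted p = 0.00959). Trf, the transferrin gene, was at 30854, 28601 and 28537 and 36814, 31540 and 24337 CPM, with overlap (95% interval -0.27 to 0.42). The higher genes of the list included the transcription factors Foxa1 and Onecut1 (0.66 and 1.65). The call of Alb was lost in 6 of 16 alternatives, including the trend over gene length removed and those without L1, L12, L19, L5 or L16. The counts ran from 3 without L12 to 11 without L6 and from 0 without L12 to 6 without L1.

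Among complement and coagulation genes, 12 of 36 tested were lower with PaPE-1 and 1, Pros1, was higher (median -0.35). F7, coagulation factor VII, was at 80.7, 74.2 and 70.5 CPM with E2 and 28.3, 46.9 and 44.1 CPM with PaPE-1 (log2 difference -0.92, adjusted p = 0.0102). Proc, the anticoagulant protein C, was at 526, 582 and 512 CPM with E2 and 308, 393 and 323 CPM with PaPE-1 (log2 difference -0.66, adjusted p = 0.00815). Factor X (F10), prekallikrein (Klkb1) and the complement subunit C8g differed by -0.63, -0.55 and -0.60. C3, the most abundant member, was at 5422, 3865 and 4047 and 4765, 4430.4 and 3787 CPM (95% interval -0.40 to 0.33). Of 29 tested acute phase genes, 7 were lower and 1, Steap4, was higher, with the fibrinogen gene Fga at 4891, 4894 and 4401 CPM with E2 and 2868, 2960.5 and 3074 CPM with PaPE-1 (log2 difference -0.67, adjusted p = 0.00859). Without L12 the counts of lower genes were 2 for complement and coagulation and 1 for acute phase proteins, and without L16 6 and 4. With the trend over gene length removed, 2 acute phase genes were lower and the median moved from -0.29 to -0.068, and 19 of the 29 lay among the shortest genes.

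Along the axis of the lobule, pericentral genes gave 5 lower and 2 higher of 26 tested, and periportal genes 1 lower and 4 higher of 26. Lect2, a chemotactic hepatokine, was at 215, 204 and 210.2 CPM with E2 and 104, 119.5 and 95.5 CPM with PaPE-1 (log2 difference -0.98, SE 0.12, adjusted p = 0.00148). Cyp2e1, the ethanol-metabolizing P450 of the pericentral zone, was at 4411, 4028 and 3976 CPM with E2 and 2218, 2936 and 1741 CPM with PaPE-1, with no overlap, and did not pass the threshold (log2 difference -0.85, adjusted p = 0.0577). Nr1i3, which encodes CAR, was at 83.99, 126 and 119 CPM with E2 and 51.99, 60.1 and 48.6 CPM with PaPE-1 (log2 difference -1.03, adjusted p = 0.0231). Aldh3a2, a fatty aldehyde dehydrogenase, was higher with PaPE-1, at 365, 369 and 422 CPM with E2 and 723, 643 and 833 CPM with PaPE-1 (log2 difference 0.93, adjusted p = 0.00209). On the periportal side, Etnppl (0.86), Slc7a2 (0.81), Slc25a13 (0.54) and Aldh1b1 (0.84) were higher. Without L12 the counts of lower and higher genes were 2 and 1 for pericentral and 1 and 1 for periportal genes.

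Other metabolic lists held genes without overlap between ligands. Tfrc, the receptor that takes up iron-loaded transferrin, was at 20.5, 15.8 and 16.4 CPM with E2, 43.3, 39.8 and 36.4 CPM with PaPE-1 and 28.9, 39.8 and 28.9 CPM with vehicle (log2 difference 1.18, SE 0.15, adjusted p = 0.00158). Dhrs3, which reduces retinal, was at 214, 216 and 166 CPM with E2 and 105, 109 and 86.9 CPM with PaPE-1 (log2 difference -0.99, adjusted p = 0.00194). Pemt, which methylates phosphatidylethanolamine to phosphatidylcholine and is an estrogen-responsive gene, was at 584, 638 and 555 CPM with E2, 375, 389 and 354 CPM with PaPE-1 and 404, 352 and 369 CPM with vehicle (log2 difference -0.67, SE 0.12, adjusted p = 0.00478). Chpt1 and Pcyt1a, which make phosphatidylcholine from choline, differed the opposite way (0.99 and 0.61). Over these lists, 1 higher and 3 lower of 20 iron genes were called, 2 and 4 of 22 retinoid genes, and 5 and 5 of 24 genes of the methionine cycle and phosphatidylcholine synthesis. Without L12 these counts were 1 and 1, 0 and 1, and 1 and 3.

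Tsku, a liver-secreted protein that acts on cholesterol transport and fat tissue, was at 44.9, 46.2 and 69.8 CPM with E2 and 145, 94.3 and 197 CPM with PaPE-1 (log2 difference 1.44, adjusted p = 0.0262). Inhbe, an activin subunit secreted by hepatocytes, was higher as well (0.97, adjusted p = 0.0261). The hepatokine list as a whole gave 2 higher and 3 lower of 22 tested. These shares were 9.09% and 13.6%, beside 10% and 7.45% of all tested genes. Glucocorticoid-responsive genes gave 2 higher and 1 lower of 20, or 10% and 5%, near the shares of all tested genes. Hsd11b1, which regenerates active glucocorticoid, was at 759.7, 702 and 638 CPM with E2 and 276, 502 and 405 CPM with PaPE-1 (log2 difference -0.83, adjusted p = 0.0299). The stress response list gave 3 higher and 1 lower of 31, or 9.68% and 3.23%. Sdf2l1, an endoplasmic reticulum chaperone component, was the lower gene (-1.21, adjusted p = 0.0108). The higher count of the stress list was 0 without L12 or L16, and its lower count was 4 without L6. The higher count of the hepatokine list was 0 without L1 or L12, and that of the glucocorticoid list ran from 1 without L12 or L16 to 5 without L6. The leptin receptor pathway gave 0 calls of 9 tested in edgeR, where 2 had an unadjusted p under 0.05, and 0 in DESeq2. Stat3, which the leptin receptor activates, was at 83.8, 89.2 and 89.5 CPM with E2 and 99.4, 87.4 and 95.1 CPM with PaPE-1 (95% interval -0.19 to 0.39). Lep itself had 0 counts in the 9 libraries, which allows up to 3 per library.

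Among matrix and stellate cell genes the calls were fewer. Of 25 tested stellate cell genes, 2 were lower and 1, Rgs5, was higher. Of 32 collagen and basement membrane genes, 4 were lower and 1, Lamc1, was higher. As lower and higher shares, 8% and 4% of stellate and 12.5% and 3.1% of collagen genes stood beside 7.45% and 10% of all tested genes. Rgs5, a marker of pericytes, was at 45.6, 20.2 and 35.3 CPM with E2 and 133, 109 and 69.3 CPM with PaPE-1 (log2 difference 1.62, adjusted p = 0.0253). Hspg2, which encodes the basement membrane proteoglycan perlecan, was at 28.4, 42.2 and 35.2 CPM with E2 and 17.4, 18.7 and 19.2 CPM with PaPE-1 (log2 difference -0.93, adjusted p = 0.00276). The collagen genes that the study names did not pass the threshold, with 95% intervals of -0.45 to 0.084 for Col4a1, -0.61 to 0.13 for Col5a3 and -1.07 to 0.25 for Col15a1. The study reported from RNA-seq that PaPE-1 lowered collagen genes. It assayed the named genes by PCR, which also measures RNA, in livers given vehicle, E2 or PaPE-1, and it stained collagen. From the PCR it described PaPE-1 as the more effective ligand on these genes. The model that its account of collagen names is DIO, whereas the values here compare the ligands in ob/ob liver. Cholangiocyte genes gave 3 higher and 2 lower of 22 (13.6% and 9.09%), and Krt19, a defining marker of bile duct cells, was below 4 CPM in all 9 libraries. Of 50 tested cell division genes, 2 were higher, Ccne1 (1.74, adjusted p = 0.00731) and E2f1 (0.86, adjusted p = 0.0331), and 0 were lower. Without L12 the lower counts were 0 for stellate and 1 for collagen genes, and the higher count of cell division genes was 1. The higher count of cholangiocyte genes was 1 without any single one of L12, L19, L5, L6 and L16.

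**Figure D3:**
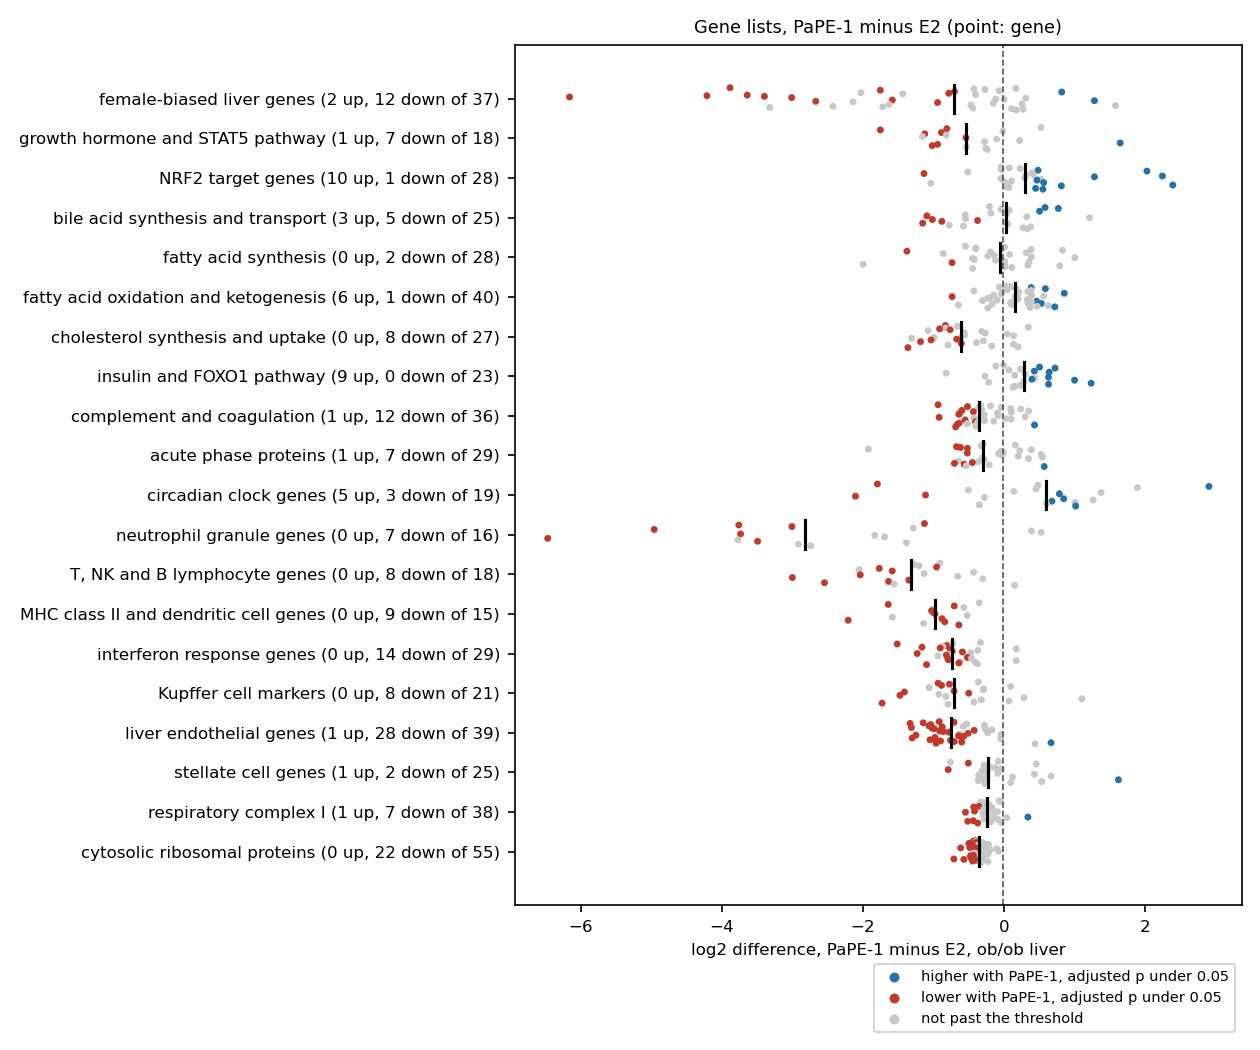
Log2 difference between PaPE-1 and E2 in ob/ob liver (horizontal axis) for the tested members of 20 gene lists, 1 point per gene, colored by direction where the adjusted p was under 0.05. Black lines are list medians and the dashed line is the median of all genes tested (-0.0079); endothelial, immune and female-biased lists lie to the left, and the NRF2, insulin and circadian lists to the right.

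Nearly all ribosomal and respiratory chain genes past the threshold were lower with PaPE-1. Of 55 tested cytosolic ribosomal protein genes 22 were lower and 0 higher (median -0.35), and of 38 genes of complex I 7 were lower and 1, Ndufs1, was higher (median -0.24). Complexes II to V gave 5 lower and 0 higher of 41. Rps27 was at 277, 248 and 271 CPM with E2 and 173, 187 and 127 CPM with PaPE-1 (log2 difference -0.71, adjusted p = 0.00701), and Ndufs8 at 112, 112 and 101 and 77.6, 83.8 and 66.5 CPM (log2 difference -0.51, adjusted p = 0.0105). Proteasome genes gave 1 higher and 3 lower of 31 (3.23% and 9.68%), and lysosomal genes 3 and 4 of 34 (8.82% and 11.8%). Of all tested genes, 10% were higher and 7.45% lower. Without L12 both lists gave 0 calls in either direction, and with the trend over gene length removed the proteasome list gave 3 higher and 0 lower. Of the genes for 9 mitochondrial proteins named in the study 1 was lower and 0 were higher, and of 13 genes printed in its SREBP1 plot, 3 were higher and 0 lower. The higher ones were Igf2r (0.99), Otud7b (0.76) and Mtmr9 (0.56). Of the 13 genes, 7 lay among the longest genes, and with the trend over gene length removed 2 were higher and 1 lower. The call of Mtmr9 was lost there and without L12, L19 or L16. The study chose these last lists on its own samples, so they are not independent evidence of a direction. The study measured the mitochondrial set by PCR, which also reads RNA, or as protein. From gene set enrichment of its liver RNA-seq it also reported higher respiratory chain sets after PaPE-1. Its account of that enrichment names high-fat-fed liver, whereas the values here are RNA differences between PaPE-1 and E2 in ob/ob liver.

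The differences moved with gene length. With the tested genes divided by transcribed length into 4 groups of equal size, in the group of the shortest genes (60 to 2162 bases) the median log2 difference was -0.196, with 2.80% of genes higher and 13.4% lower. In the group of the longest (6008 to 114472 bases) it was 0.165, with 18.6% higher and 2.92% lower. As log2 deviations from the vehicle mean, the shortest genes stood at 0.171, 0.241 and 0.195 in the E2 libraries and at 0.061, 0.075 and -0.091 in the PaPE-1 libraries. With the trend over length removed, the counts of lower genes were 4 for ribosomal proteins, 0 for complex I and 1 for complexes II to V. Without L12 they were 3, 0 and 0, and without L16 3, 2 and 1. Over all genes, removing the trend left 1072 higher and 803 lower. The part of RNA quality or library preparation in the trend was not tested.

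**Figure D4:**
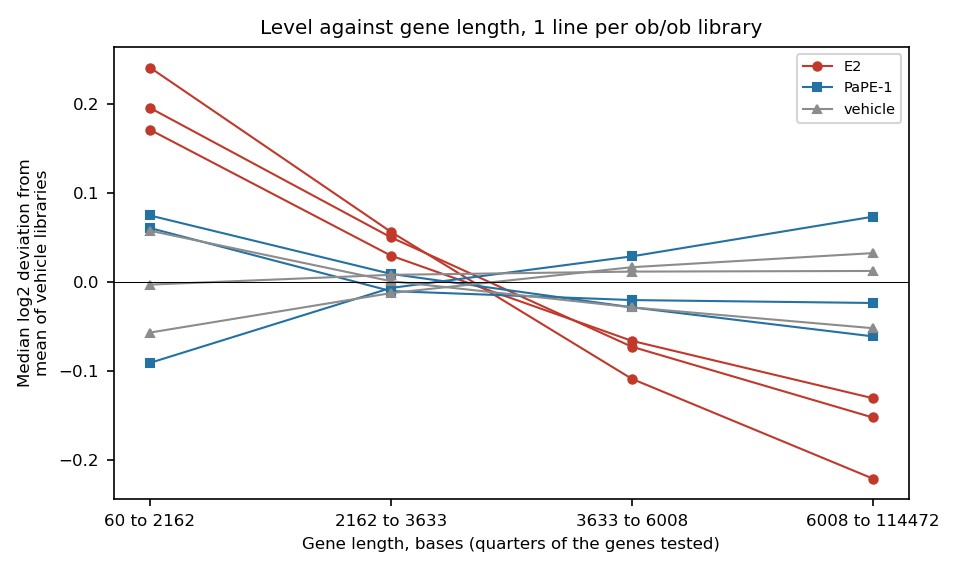
Median log2 deviation from the mean of the vehicle libraries (vertical axis) in 4 equal groups of the tested genes by length in bases (horizontal axis), with 1 line per ob/ob library, 3 per group. The 3 E2 lines fall from 0.171 to 0.241 among the shortest genes to values below 0 among the longest, while the PaPE-1 lines spread around 0 with L16 the lowest among the shortest genes.

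The same ligands and doses were also given to ovariectomized wild-type C57BL/6 females on a high-fat diet (diet-induced obesity, DIO), which allowed the difference between ligands to be compared across models. The methods of the study give a week between ovariectomy and treatment for ob/ob mice and name no such gap for DIO mice. Mouse model, diet, this timing and the preparation and sequencing of the libraries cannot be told apart in the contrast of models. In a fit over all 18 libraries, the PaPE-1 minus E2 difference was higher in ob/ob than in DIO liver for 1076 of 14171 genes tested (7.59%) and lower for 899 (6.34%). Clec4g was at 63.4, 51.2 and 53.8 CPM with E2 and 54.4, 54.2 and 69.2 CPM with PaPE-1 in DIO liver, where the groups overlapped. Its difference between ligands was -1.32 in ob/ob and 0.078 in DIO liver, and these differed by -1.40 (SE 0.19, adjusted p = 0.00457). Cyp2c40 was at 333, 325 and 436 CPM with E2 and 261, 304 and 253 CPM with PaPE-1 in DIO liver. Vehicle libraries of DIO liver held 261, 212 and 224 CPM, above those of ob/ob liver. In that gap of levels, too, model, diet, timing of treatment and library preparation cannot be told apart. The differences between ligands were -3.63 in ob/ob and -0.42 in DIO (adjusted p = 0.00457 for the difference of the differences).

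Mup3 differed in opposite directions: it was at 1179, 2175 and 1242 CPM with E2 and 3447, 3782 and 4121 CPM with PaPE-1 in DIO liver, so that the difference was -1.43 in ob/ob and 1.30 in DIO liver (adjusted p = 0.00457). F2r, the thrombin receptor gene, was at 15.5, 17.1 and 18.9 CPM with E2 and 45.5, 27.6 and 45.3 CPM with PaPE-1 in ob/ob liver and at 15.97, 14.5 and 14.9 and 11.4, 11.5 and 13.1 CPM in DIO liver (differences 1.21 and -0.33, adjusted p = 0.00457). By list, the difference between ligands was lower in ob/ob than in DIO liver for 11 of 39 endothelial genes, 10 of 37 complement and coagulation genes, 53 of 55 ribosomal protein genes and 20 of 38 complex I genes. Their median differences in DIO liver were -0.26, 0.17, 0.53 and 0.42. In the opposite direction stood 1, 0, 0 and 0 genes of these lists. Of the ribosomal and complex I genes, 52 of 55 and 33 of 38 lay among the shortest genes. The trend over gene length was not removed in the comparison of models, so its part in these counts was not tested. For PaPE-1 against E2 in DIO liver, 93 genes passed the threshold in this fit and 5 in a fit of the DIO libraries alone. The number of genes past the threshold was 566 without ob/ob PaPE-1 library L16, 586 without ob/ob E2 library L12, 769 without the first DIO E2 library and 3267 without the second.

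**Figure D5:**
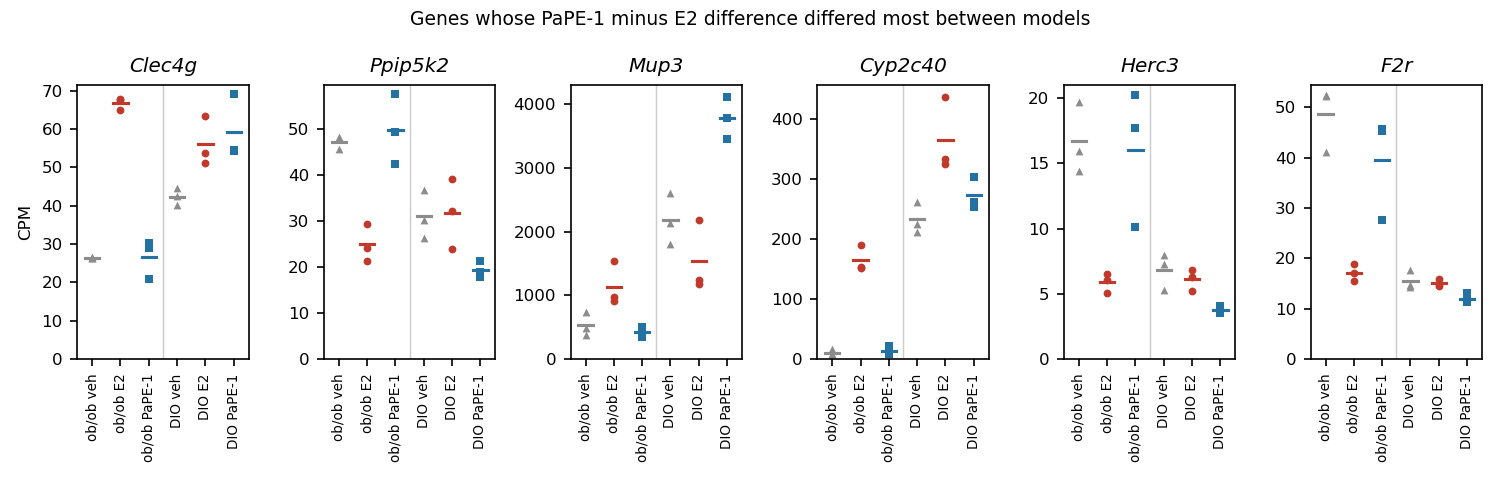
Level per library in CPM (vertical axes start at 0) of the 6 genes with the smallest p for a difference between ob/ob and DIO liver in the PaPE-1 minus E2 difference, in 6 groups of 3 libraries, with group means as lines. In ob/ob liver Clec4g, Mup3 and Cyp2c40 lie lower and Ppip5k2, Herc3 and F2r higher with PaPE-1 than with E2, and in DIO liver Mup3 lies higher with PaPE-1.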

How the data were processed

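Liver RNA was sequenced from poly-A selected, stranded libraries of ovariectomized female mice, 3 libraries per treatment and model. According to the labels and the file header, reads were prepared with CASAVA 1.8.2, aligned with STAR 2.7.6a to the RefSeq GRCm39 genome and counted per gene by the authors with featureCounts 2.0.0 (strand option 2), and these counts were deposited without normalization. The 4 result tables of the authors hold DESeq2 fold changes and p-values beside 36 columns of normalized counts, and none of them was used. The methods of the study name other alignment and analysis tools than the header, and the header was followed. Libraries were assigned by model and treatment labels. Doses came from the methods of the study.

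Counts of the 9 ob/ob libraries were filtered with filterByExpr, scaled by TMM and tested with edgeR 4.0.16 (quasi-likelihood, group means without covariates) in R 4.3.3, with Benjamini-Hochberg adjustment over all 13433 genes. Values are CPM on TMM-scaled totals, and principal components used log2 CPM with a prior count of 2. Counting intervals cover counting error only. Adjusted p-values come from a test that sets the difference between groups against the spread between libraries within groups. The comparison of models fitted all 18 libraries with an interaction term. Alternatives used DESeq2 1.42.0, limma 3.58.1, other filters and sample sets, and a loess trend on gene length (span 0.5). On simulated counts of the 13433 genes, the test of PaPE-1 against E2 recovered 70 of 100 genes changed 2-fold and 92 of 100 changed 4-fold, with 13 false calls. The simulated counts held no trend over gene length, no outlying library and no other difference between groups. These numbers are therefore not error rates of the real comparison. Genes were named by a rule: the 15 largest differences in each direction among called, non-overlapping genes with a mean of at least 1 CPM, up to 6 members per list by adjusted p and the most abundant member, the genes the study names, the estrogen receptors, and the 6 genes with the smallest p between models. Members that make up small counts in the text, and Arntl, Per2, Per3, Dbp, Ciart, Nr1d1, Cyp2b10, Gbp3 and Oas1a, fall outside it and were chosen after their values were seen. The libraries and gene lists were chosen with earlier results of these data known. Many lists share members, such as Cxcl9 in the interferon and chemokine lists, so the counts of different lists are not independent. Promoter windows are from RefSeq, GRCm38.p6, and were not combined with GRCm39 coordinates.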

Additional observations from a re-analysis of the deposited data

Results flagged for a closer look

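The 6 genes described here had differences between PaPE-1 and E2 that themselves differed between ob/ob and DIO liver by edgeR's interaction test, and all had an adjusted p of 0.00457. The log2 difference in ob/ob minus that in DIO liver was -1.40 for Clec4g (-1.32 and 0.078), -2.73 for Mup3 (-1.43 and 1.30) and -3.21 for Cyp2c40 (-3.63 and -0.42). It was 1.71 for Ppip5k2, an inositol phosphate kinase (0.996 and -0.72), 2.14 for Herc3, a ubiquitin ligase (1.45 and -0.69), and 1.54 for F2r (1.21 and -0.33). Ppip5k2 was at 29.4, 21.5 and 24.3 CPM with E2 and 49.2, 42.2 and 57.6 CPM with PaPE-1 in ob/ob liver and at 39.2, 23.9 and 32.2 and 18.9, 17.8 and 21.4 CPM in DIO liver. Herc3 was at 6.07, 6.57 and 5.08 CPM with E2 and 17.7, 10.1 and 20.2 CPM with PaPE-1 in ob/ob liver and at 5.19, 6.26 and 6.85 and 4.06, 3.51 and 3.77 CPM in DIO liver. Reads of Mup3 and Cyp2c40 may be shared with close paralogs.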

How the results depend on the processing

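With DESeq2 size factors, DESeq2, limma voom, either filter, the 6 libraries alone or the trend over gene length removed, the counts of genes higher (1072 to 1473) and lower (803 to 1091) with PaPE-1 stayed within 1.5 times those reported, while a fold change over 2 left 183 and 244. With each ob/ob library left out in turn they ran from 292 (without E2 library L12) to 1750 (without E2 library L1) for higher and from 199 to 1094, without the same libraries, for lower genes. The number of genes whose difference between ligands differed between models was 1975. It was 997 with the E2 and PaPE-1 libraries alone, and 566 (without ob/ob PaPE-1 library L16) to 3267 (without the second DIO E2 library) with single libraries left out. With the length trend removed, the medians of the glutathione (0.10), periportal (0.015), complex I (0.0099), complexes II to V (0.026), mitochondrial proteins named in the study (0.046) and proteasome (0.11) lists turned from negative to positive. With single libraries left out, the median ran from -0.13 (without L6) to 0.0062 (without L16) for periportal genes, from -0.079 (without L6) to 0.11 (without L1) for hepatocyte identity genes and from -0.095 (without L6) to 0.0055 (without L1) for proteasome genes. Medians of other lists also changed sign with single libraries left out: male-biased genes to 0.11 (without L1), fatty acid synthesis to 0.022 (without L5), stress response to -0.19 (without L6), lipid-associated macrophages to -0.081 (without L5), cell division to -0.095 (without L16), leptin receptor pathway to 0.072 (without L12) and bile acid genes to -0.068 (without L6), and bile acid genes to -0.10 with the length trend removed. The cause was not tested. The calls of Cyp4a12a, Ltf, Ly6k, Cideb, Lpl, Cyp4a32, Gckr and Ndufs1 were lost in 8 to 10 of the 15 or 16 alternatives run for each. Further calls counted in the lists were as unstable or more so. That of Psma5 was lost in 13 of 16 alternatives, those of Cox5b and Galns in 11 and that of Ctsb in 10. Of the genes named by the rule, 31 of 89 higher and 54 of 162 lower genes were past the threshold in every alternative run, and none of these turned its direction. A left-out library leaves 2 in its group, and 3 libraries per group limit which differences can be detected. No paired analysis was possible because the labels give the libraries no replicate numbers shared between treatments.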
